A study of Mus musculus with 12 samples.

Results

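The 4 Hox gene clusters were examined for DNA methylation at CCCGGG sites in colonic adenomas of mice. Sites were taken from 4 windows of the mm9 genome: HoxA at chr6:52100000-52215000, HoxB at chr11:96050000-96235000, HoxC at chr15:102745000-102875000 and HoxD at chr2:74495000-74610000. A site was kept when it had at least 20 reads in each of 11 adenomas, which left 73 of the 176 sites in the windows and 24503 of 164896 autosomal sites in all. HoxA held 23 of the kept sites, HoxB 19, HoxC 9 and HoxD 22. All mice were of the C57BL/6J strain, carried the Min allele of Apc (ApcMin/+), whose loss of the second allele starts intestinal adenomas, and were killed at 150 to 160 days. The control genotype was Tet1+/+ Tdg+/+ (3 adenomas), the Tet1 null genotype Tet1-/- Tdg+/+ (3), the Tdg heterozygous genotype Tet1+/+ TdgN151A/+ (3) and the double heterozygous genotype Tet1+/- TdgN151A/+ (2 of 3 adenomas used). The main tests do not include double heterozygous adenoma 3, for its depth. Whether each adenoma had its own mouse is not in the labels, so the p-values cover only variation among these samples, part of which may be technical.

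Hox genes encode homeodomain transcription factors that set the identity of body segments along the head-to-tail axis, and several stay active in the adult gut. They lie in order along each cluster, are rich in CpG islands and are held silent by Polycomb complexes where they are not used. Such islands are mostly unmethylated in normal tissue and are among the regions that gain methylation in colorectal tumours. Tet1, which binds CpG-rich DNA, is an enzyme that oxidises methylated cytosine, and Tdg is a glycosylase that removes oxidised cytosine. The N151A substitution takes away the catalytic activity of Tdg. The comparisons ask whether methylation of the clusters changes when either enzyme is altered.

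The measured unit is the CCCGGG hexamer, cut by SmaI when its central CpG is unmethylated and by XmaI when it is methylated. Stretches of RefSeq promoter sequence (GRCm38.p6) are shown because they carry this hexamer, in capitals, in its natural surroundings at a pair of paralogous genes and at the first gene of HoxB.
Hoxa9 (chr6:52227527-52227612, minus strand): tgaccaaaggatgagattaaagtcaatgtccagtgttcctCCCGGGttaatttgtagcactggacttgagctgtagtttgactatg
Hoxd9 (chr2:74697528-74697613, plus strand): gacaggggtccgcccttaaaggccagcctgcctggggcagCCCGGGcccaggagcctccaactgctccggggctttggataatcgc
Hoxb1 (chr11:96365684-96365769, plus strand): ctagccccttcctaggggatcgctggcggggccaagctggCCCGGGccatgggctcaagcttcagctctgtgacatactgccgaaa
The hexamer reads the same on both strands. The 300-base promoter windows around these starts held 4 CpG dinucleotides for Hoxa9, 20 for Hoxd9 and 10 for Hoxb1. Of the 38 Hox genes considered, 22 had a promoter sequence, and 8 of these (36.4%) held CCCGGG between 250 bases before and 50 bases after the start. The 8 were Hoxa2, Hoxa6, Hoxa9, Hoxb1, Hoxd4, Hoxd9, Hoxd10 and Hoxd11. Of all 27025 genes in that table, 15% held it. The promoter table and the methylation files use different builds, so each measured site is named by its mm9 coordinate, and none was placed in a gene, exon or promoter. Along rising coordinates, genes run from Hoxb13 to Hoxb1, from Hoxc13 to Hoxc4 and from Hoxd13 to Hoxd1.

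Libraries held 8213211 to 18865833 reads at mm9 sites in the 11 adenomas and 2349576 in double heterozygous adenoma 3. Median depth at the 73 sites was 246 reads in Tet1 null adenoma 3 and 415 to 734 reads in the other 10, and the shallow library had 92. Reads on the Y chromosome separated 5 female adenomas (0 to 10 reads) from male ones. Females were control 2 and 3, Tet1 null 3 and Tdg heterozygous 1 and 3. Spiked standards with low raw methylation in every library were taken as unmethylated. The highest of them in each library read 0.14 to 1.99% raw methylation over the 12 libraries, so levels of this size can lie within the reading of unmethylated DNA. Adenomas of 1 genotype differed at 23.4 to 41.5% of tested sites (chi-square p under 0.05), so no such pair looked like 1 library deposited again. Pairs across genotypes and pairs with double heterozygous adenoma 3 were not compared.

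Hox sites were mostly unmethylated in control adenomas. The mean control level was under 5% at 64 of 73 sites (87.7%) and under 1% at 39 sites (53.4%), with a median of 0.923%. Over all 24503 autosomal sites kept, 55.5% lay under 5%, and the median was 1.26%. Levels of 20 to 80% were found at 4 Hox sites (5.48%) and over 80% at 1 site (1.37%), against 19.5% and 17.9% of all sites. By cluster, 20 of 23 HoxA sites, 17 of 19 HoxB sites, 8 of 9 HoxC sites and 19 of 22 HoxD sites were under 5%. The median control level was 0.35% in HoxA, 0.363% in HoxB, 1.18% in HoxC and 1.65% in HoxD.

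The depth rule favoured sites that have another CCCGGG site close by. Among the 73 kept sites, 51 had 1 such neighbour within 500 bp and 16 had 2 or more, and among the 103 sites not kept, 70 had none. Among sites with 1 neighbour, 45 of 51 Hox sites (88.2%) and 45.0% of all sites kept were under 5% in control. Of the 103, 75 reached 20 reads in no adenoma, so methylation away from paired sites was mostly not measured here. Just inside the rule were HoxB positions 96180189 (lowest depth 23 reads, levels 0 to 5.64%) and 96158615 (28 reads, 88.5 to 100%). Just outside were HoxA positions 52109101 (17 reads, 0 to 1.42%) and 52108505 (16 reads, 0% in all 11).

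The unmethylated state reached the limit of detection at several sites. At HoxA position 52161843 none of 5025 reads summed over the 11 adenomas was methylated, which allows a level of up to 0.0597%, and at position 52196576 none of 6678 was, which allows 0.0449% (3 reads of the total, counting error only). These 2 sites could not be tested, which left 71. In HoxB, positions 96133182, 96133431 and 96133979 did not pass 0.22% in any of the 11 adenomas.

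**Figure D1:**
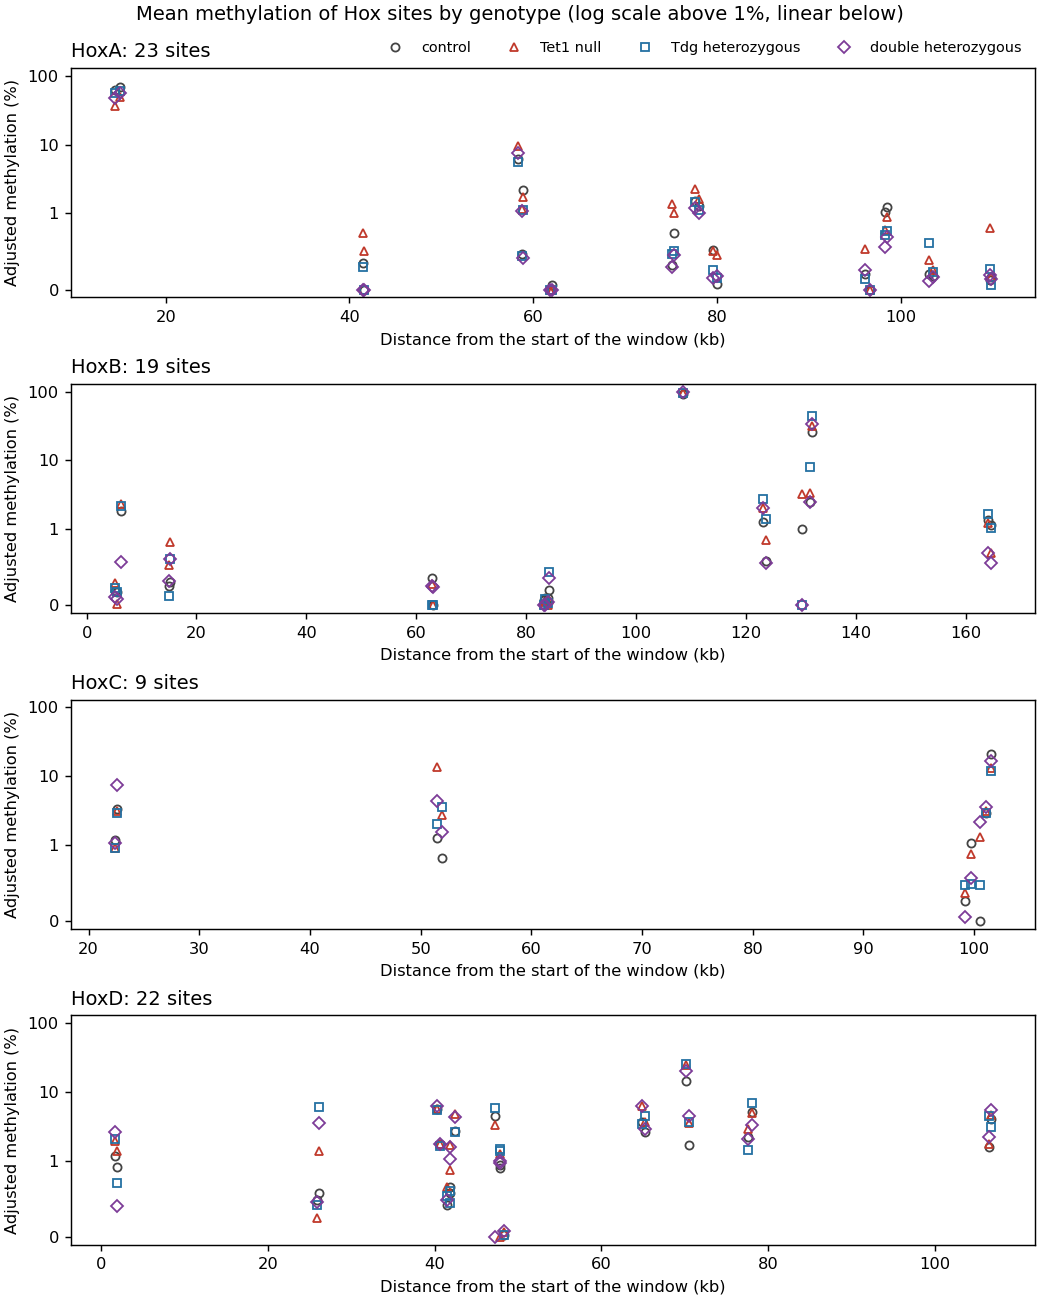
Mean adjusted methylation level (%, log scale above 1%, linear below) of each of the 73 Hox sites against its distance from the start of the window (kb), with 1 symbol per genotype (means of 3 adenomas, 2 for double heterozygous). Most symbols lie below 5%, and the few sites above 20% sit near 15 kb in HoxA, at 108.6 and 132.1 kb in HoxB, at 101.5 kb in HoxC and at 70.1 kb in HoxD.

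Neighbouring sites could differ steeply in level. There were 34 pairs of adjacent kept sites no more than 500 bp apart, and in 27 of them the median depths were within 1.2-fold of each other, so the sites of a pair are not independent measurements. In 26 pairs the median levels over the 11 adenomas lay within 1 percentage point. In 4 pairs they lay over 5 points apart, with all 11 adenomas in the same order. In HoxB, position 96181726 had a median of 3.00% and position 96182075, 349 bp on, 30.8%. In HoxC, position 102846100 had a median of 2.95% and position 102846467, 367 bp on, 15.6%. In HoxD, position 74565069 had a median of 19.1% and position 74565537, 468 bp on, 2.80%. In HoxA, position 52158327 had a median of 6.67% and position 52158800, 473 bp on, 0.73%. These 4 pairs were singled out after their values were seen, so the order of levels in them is a description.

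Methylation was higher in Tet1 null than in control adenomas at 1 Hox site, in HoxC. Of 71 tested sites, 1 rose and 0 fell in Tet1 null against control adenomas (1.41%, edgeR adjusted p under 0.05), while over all 21016 autosomal sites tested 1.33% rose and 0.0143% fell (1.35% in all). The share in the Hox clusters was thus near that over all sites. At an unadjusted p under 0.05 there were 5 Hox sites (7.04%), against 8.05% of all sites. The median difference was 0.23 points over the Hox sites and 0.0467 points over all sites kept. A difference of at least 5 points in either direction was seen at 6 of 73 Hox sites (8.22%) and at 18.3% of all sites.

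The site that rose was position 102796453 on chromosome 15, 51.5 kb into the HoxC window, whose genes encode the factors Hoxc13 to Hoxc4. Its level was 1.22, 0.75 and 1.87% in the control adenomas and 13.4, 9.19 and 18.6% in the Tet1 null adenomas. In Tdg heterozygous adenomas it was 0.57, 2.47 and 3.00%, and in double heterozygous adenomas 4.98 and 3.72%. All 3 Tet1 null values lay above the values of the other 8 adenomas, and the double heterozygous pair lay between them and the rest. The mean was 13.7% ± 4.72 (SD, n = 3) in Tet1 null and 1.28% ± 0.562 (n = 3) in control adenomas, a rise of 12.5 points (log2 odds ratio 3.57, edgeR adjusted p = 0.00117). The adjusted p of limma on log2 ratios of counts was 0.0114.

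Depth at this site was modest. Methylated reads numbered 31 of 228, 19 of 210 and 11 of 55 in the Tet1 null adenomas, with 95% Clopper-Pearson intervals of 9.43 to 18.7%, 5.54 to 13.8% and 10.4 to 33.0% on the raw level. In control they numbered 4 of 318, 2 of 253 and 3 of 168 (upper bounds 3.19, 2.83 and 5.13%). The intervals cover counting error only. With Tet1 null adenoma 3, the shallowest, left out, the site was still called (edgeR adjusted p = 0.0318). At a depth minimum of 100 reads the site is not tested, and with limma on the logit of the adjusted level it did not pass (adjusted p = 0.121). With sex as a covariate it was called (edgeR adjusted p = 0.00563).

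The closest listed site to the called one, position 102796447, lies only a few bases before it and was not kept (lowest depth 14 reads). Its control levels were well above the 0.75 to 1.87% of the called site. Whether the state read at one of these 2 sites depends on the other was not tested. Its level was 10.55, 10.2 and 30.12% in control and 46.88, 27.87 and 47.77% in Tet1 null adenomas. In Tdg heterozygous adenomas it was 18.06, 60.15 and 39.82%, and in double heterozygous adenomas 12.54 and 17.86%. The Tet1 null values there overlapped control and did not stand above the rest. The next kept HoxC site, position 102796947, 494 bp on from the called site, shared the order of the genotypes in part. Its level was 0.49, 0.34 and 1.65% in control and 2.23, 3.13 and 2.78% in Tet1 null adenomas. It was 0.81, 7.38 and 2.59% in Tdg heterozygous and 1.01 and 2.09% in double heterozygous adenomas. Each Tet1 null value exceeded each control value, the highest value was in Tdg heterozygous adenoma 2, and the site did not pass the test (edgeR adjusted p = 0.531 for Tet1 null against control).

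Against the Tdg heterozygous adenomas, the same HoxC site was the 1 Hox site higher in Tet1 null adenomas, and 0 were lower (71 tested, 1.41%). Over all tested sites 1.48% were higher and 0.00476% lower. At an unadjusted p under 0.05 there were 5 Hox sites (7.04%), against 7.19% of all sites. Every Tet1 null value exceeded every Tdg heterozygous value at 5 of 73 Hox sites (6.85%, against 6.58%), and the reverse held at 0 (against 1.65%). The means were 13.7% and 2.01% ± 1.28 (n = 3), a difference of 11.7 points (log2 odds ratio 2.95, edgeR adjusted p = 0.00593, limma adjusted p = 0.0141). The call was lost without Tet1 null adenoma 3 (edgeR adjusted p = 0.0993) and without Tdg heterozygous adenoma 1 (0.204), with log2 odds ratios of 2.67 and 2.38. Against the double heterozygous adenomas, the site was at 13.7% and 4.35% ± 0.891 (n = 2), a difference of 9.39 points that did not pass (edgeR adjusted p = 0.943). In that comparison 0 of 71 Hox sites were called by edgeR or limma and 3 (4.23%) had an unadjusted p under 0.05. Over all sites 0.471% were called (0.466% higher and 0.00476% lower), and 4.23% had an unadjusted p under 0.05. Tet1 null adenomas lay wholly above the double heterozygous ones at 9 Hox sites (12.3%, against 6.97%) and wholly below at 1 (1.37%, against 4.2%). The site with the smallest p was HoxD position 74542204, at 1.91, 5.18 and 2.96% against 0 and 0% (edgeR adjusted p = 0.693). The comparisons share the Tet1 null adenomas.

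The share of Hox sites at which Tet1 null and control adenomas did not overlap was near that over all sites in the higher direction. At 7 of 73 sites each Tet1 null adenoma exceeded each control adenoma (9.59%, against 8.84% of all sites kept), and at 2 each was lower (2.74%, against 1.07%). The 7 included the called HoxC site and the next kept site, position 102796947. At HoxA position 52158327 the Tet1 null mean was 9.60% and the control mean 6.12%, and at HoxD position 74559872 these were 6.31 and 3.60%. The other 3, HoxA positions 52175123, 52180047 and 52209666, differed by 1.03, 0.383 and 0.687 points. The pair that lay lower was in HoxB, at 96133979 and 96214568, by 0.10 and 0.473 points. None of these passed the test apart from the called HoxC site.

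The 64 Hox sites under 5% in control averaged 1.09, 1.00 and 0.923% in the control adenomas and 1.28, 1.78 and 1.61% in the Tet1 null adenomas. They averaged 1.2, 1.31 and 1.5% in Tdg heterozygous and 1.12 and 1.32% in double heterozygous adenomas. Without the called HoxC site the Tet1 null values were 1.09, 1.66 and 1.34%, and Tet1 null adenoma 1 then lay within the control values of 0.908 to 1.09%. At the 13533 sites of this level outside the clusters, control adenomas were at 0.337 to 0.391%, Tet1 null at 0.677 to 0.876% and the others at 0.435 to 0.532%. The sites were chosen by their control values, so these averages carry no test. Of the 64 sites, a level of 15% or more was reached by 1 in Tet1 null adenoma 3, the called site, and by 1 in Tdg heterozygous adenoma 3. It was reached by none in any other adenoma. Over all 13597 sites under 5% in control, 0.507, 0.677 and 0.677% reached it in Tet1 null adenomas 1, 2 and 3, and 0.0441% in Tdg heterozygous adenoma 3.

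One mutated Tdg allele changed no Hox site past the threshold. In Tdg heterozygous against control adenomas, 0 of 71 Hox sites were called by edgeR and 0 by limma, and 2 (2.82%) had an unadjusted p under 0.05. Over all 21016 tested sites 0% were called, and 3.01% had an unadjusted p under 0.05. The median difference was -0.0133 points over the Hox sites. All 3 Tdg heterozygous values lay above the control values at 1 site (1.37%, against 5.06% of all sites), HoxD position 74560182 (2.64 to 4.41%), and below them at 1 (1.37%, against 1.59%), HoxB position 96133979 (0.10 to 0.0267%), both given as the control mean and the Tdg heterozygous mean.

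The Hox site with the smallest p in this comparison was HoxD position 74521190, 26.2 kb into the window on the side of Hoxd13. Its level was 1.22, 0.38 and 0.14% in control and 12.9, 4.40 and 0.94% in Tdg heterozygous adenomas. It was 0.44, 0.91 and 2.75% in Tet1 null and 1.27 and 5.72% in double heterozygous adenomas. Tdg heterozygous adenoma 1 stood highest, and adenoma 3 lay within the control values. The means were 6.07% ± 6.14 and 0.58% ± 0.567 (n = 3 each), and the difference of 5.49 points did not pass (log2 odds ratio 3.02, edgeR adjusted p = 0.123, limma adjusted p = 1.00). It passed without Tdg heterozygous adenoma 3 (edgeR adjusted p = 0.0216) and without double heterozygous adenoma 1 or 2 (0.0470 and 0.0465). Its neighbour 293 bp away, position 74520897, stayed between 0.10 and 0.64% in the 11 adenomas, on 472 reads or more.

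The next sites by p did not pass either (edgeR adjusted p = 1 for each). Higher in Tdg heterozygous adenomas were HoxC position 102796947, described above, and HoxD position 74601512 (4.11, 8.13 and 1.31% against 2.53, 1.98 and 0.32% in control). Lower were HoxB positions 96112891 and 96133182, at 0% in all 3 Tdg heterozygous adenomas against control means of 0.363 and 0.07%. HoxC position 102846467 was at 11.8% ± 4.78 against 20.8% ± 14.7, and the groups overlapped.

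The double heterozygous adenomas, which carry 1 intact allele of each gene, also had no Hox site past the threshold. Against control, 0 of 71 sites were called by edgeR and 0 by limma, and 4 (5.63%) had an unadjusted p under 0.05, against 0% and 3.72% of all tested sites. With 2 adenomas against 3, every double heterozygous value lay above the control values at 9 of 73 sites (12.3%, against 10.7% of all sites) and below at 4 (5.48%, against 2.32%). Of the 9 sites, 6 were among the 22 HoxD sites: positions 74496730, 74521190, 74537354, 74559872, 74565069 and 74565537. The last 2 are a neighbouring pair 468 bp apart and not independent measurements. At HoxD position 74565069 the levels were 19.1 and 20.7% against 14.7, 17.1 and 11.7% in control. At HoxD position 74542204 they were 0 and 0% against 7.23, 6.13 and 0% in control, on 31 to 155 reads over the 11 adenomas (edgeR adjusted p = 0.904). HoxC position 102845505 was at 1.19 and 3.15% against 0% in all 3 controls (edgeR adjusted p = 0.904), and the HoxC site that rose in Tet1 null adenomas was 3.07 points above control (edgeR adjusted p = 0.904).

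HoxA position 52158946 was at 0 and 0.84% against 0.93, 3.10 and 2.53% in control, and HoxB position 96133431 was at 0% against a control mean of 0.10%. Neither passed (edgeR adjusted p = 0.904 for each). In double heterozygous against Tdg heterozygous adenomas, 0 of 71 Hox sites were called by edgeR or limma and 1 (1.41%) had an unadjusted p under 0.05. Over all sites 0% were called and 2.71% had an unadjusted p under 0.05. Groups did not overlap at 4 Hox sites where the double heterozygous adenomas were higher (5.48%, against 6.6%) and 7 where they were lower (9.59%, against 3.38%). The smallest p was at HoxD position 74542204, at 0 and 0% against 4.24, 3.81 and 9.25% (edgeR adjusted p = 1). HoxC position 102767644 was at 3.12 and 11.9% against 2.88, 3.67 and 2.22%, so that 1 adenoma stood apart (edgeR adjusted p = 1).

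**Figure D2:**
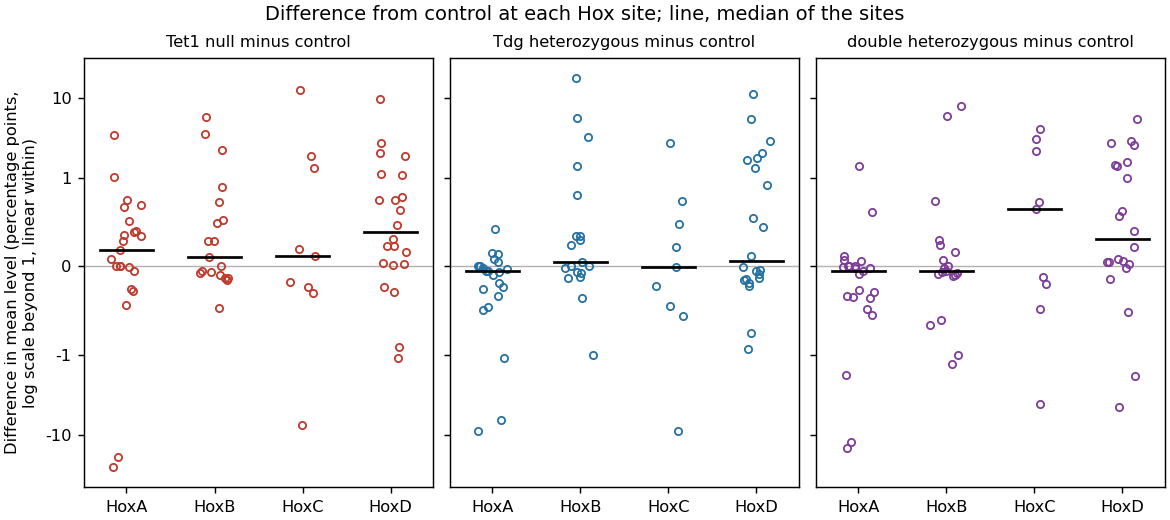
Difference in mean adjusted level from control (percentage points, log scale beyond 1, linear within) at each Hox site of the 4 clusters, with 1 panel per mutant genotype and a line at the median of the sites. The HoxC point near 12.5 points in the Tet1 null panel is the called site, and the points below -10 points in HoxA are a neighbouring pair of partly methylated sites.

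Averages over the sites of each cluster are given here without a test because the members were chosen with results known. HoxD averaged 2.92, 2.63 and 2.17% in control adenomas and 3.41, 3.8 and 3.31% in Tet1 null adenomas. It averaged 3.96, 3.38 and 3.89% in Tdg heterozygous and 2.79 and 3.65% in double heterozygous adenomas. All 3 Tet1 null and all 3 Tdg heterozygous averages lay above the control averages, which these comparisons share, and 1 double heterozygous average lay within them. Averages over all autosomal sites kept were 27.8 to 28.3% in control and 28.3, 31.5 and 30.2% in Tet1 null adenomas. They were 28.5, 28.5 and 29.4% in Tdg heterozygous and 30.7 and 28.7% in double heterozygous adenomas, so over all sites too the mutant averages lay above control, except that Tet1 null adenoma 1 lay within the control range. Without HoxD position 74565069, the widest-ranging site, the averages were 1.72 to 2.36% in control and 1.78 to 3.27% in Tet1 null adenomas, so that those groups overlapped, and 2.43 to 2.90% in Tdg heterozygous adenomas. In Tet1 null adenomas 18 of 22 HoxD sites were higher than in control by the group mean. In Tdg heterozygous adenomas 11 were, and in double heterozygous adenomas 17 were. Over all sites kept, 55.8, 45.7 and 50.04% were higher than in control in these genotypes, with ties counted as not higher. Those higher and lower numbered 13679 and 5946 for Tet1 null, 11189 and 7913 for Tdg heterozygous, and 12262 and 6624 for double heterozygous adenomas. In the other clusters, Tet1 null adenomas were higher at 14 of 23 HoxA, 10 of 19 HoxB and 5 of 9 HoxC sites. For Tdg heterozygous adenomas these counts were 5, 11 and 4, and for double heterozygous adenomas 5, 8 and 5.

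HoxC averaged 1.95, 3.19 and 5.41% in control and 3.65, 4.58 and 4.85% in Tet1 null adenomas, which overlapped. HoxB averaged 6.80% ± 0.527 in control, 7.53% ± 1.30 in Tet1 null and 8.31% ± 2.29 in Tdg heterozygous adenomas (n = 3 each), with overlapping values. HoxA averaged 6.45% ± 0.714 in control and 4.83% ± 1.5 in Tet1 null adenomas. This lower HoxA average came from 2 sites: without them, the averages were 0.798% ± 0.0689 and 1.18% ± 0.279, in the opposite order. Over all 73 sites the averages were 5.01% ± 0.0379 in control and 5.08% ± 0.0634 in Tet1 null adenomas (n = 3 each). They were 5.42% ± 0.297 (n = 3) in Tdg heterozygous and 5.03% ± 0.544 (n = 2) in double heterozygous adenomas.

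**Figure D3:**
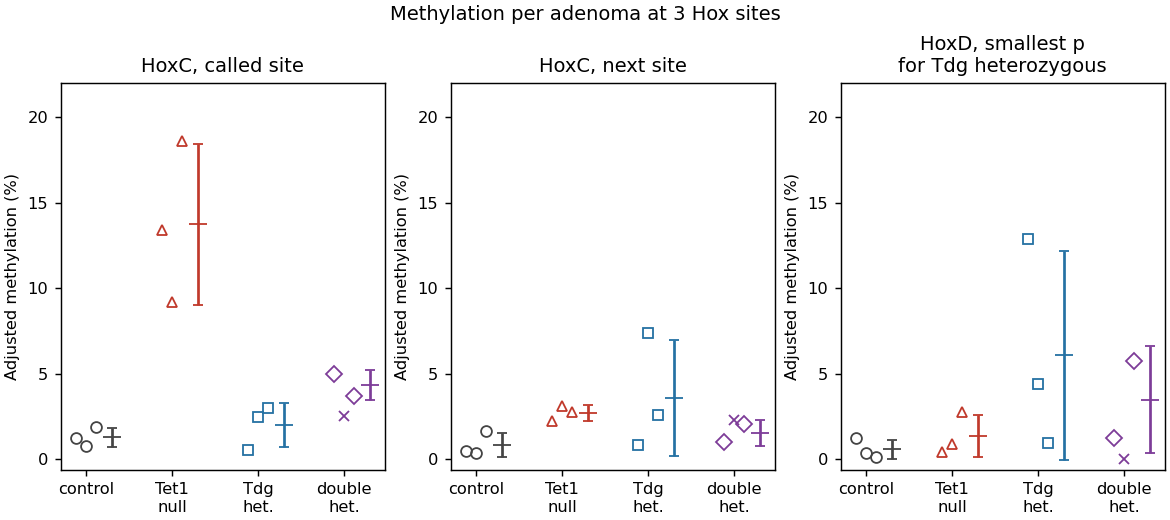
Adjusted methylation level (%) in each adenoma at the HoxC site called in Tet1 null adenomas, the next kept HoxC site and the HoxD site with the smallest p for Tdg heterozygous adenomas. Open symbols are adenomas, bars give mean and SD, and the cross is double heterozygous adenoma 3, left out of the mean. At the first site the 3 Tet1 null adenomas sit between 9.19 and 18.6%, above the others, and at the HoxD site 1 Tdg heterozygous adenoma reaches 12.9%.

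The Hox sites with the widest spread differed between adenomas of the same genotype. The range over the 11 adenomas was 20 points or more at 5 of 73 Hox sites (6.85%), against 23.3% of all sites kept, and its median was 2.06 points against 2.59. The 5 were 2 in HoxA and 1 in each of the other clusters, and none of them was called in any of the 6 comparisons.

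At HoxA position 52114462, 14.5 kb into the window, the level was 71.3, 62.15 and 53.3% in control and 59.5, 21.1 and 28.45% in Tet1 null adenomas. It was 69.3, 64.9 and 32.7% in Tdg heterozygous and 26.9 and 67.9% in double heterozygous adenomas. At HoxA position 52115047, 585 bp on, the level was 76.4, 66.8 and 64.6% in control and 65.2, 29.9 and 54.55% in Tet1 null adenomas. There it was 68.4, 77.3 and 34.6% in Tdg heterozygous and 38.75 and 74.8% in double heterozygous adenomas. Control adenomas kept high levels at both sites, and each mutant genotype held at least 1 adenoma near the control level and at least 1 well below it. For Tet1 null against control the differences of -25.9 and -19.4 points did not pass (edgeR adjusted p = 0.455 and 0.698). Depth was 33 to 192 reads at the first site and 37 to 218 at the second. The nearest listed sites on either side, positions 52113793 and 52115690, were not kept (lowest depths 8 and 13 reads). In control they read 78.34 to 95.61% and 77.97 to 95.65%. They read 87.98 and 60.82% in Tet1 null adenoma 2 and 47.77 and 83.42% in adenoma 3. Tdg heterozygous adenoma 3 read 81.06 and 74.74% there, and double heterozygous adenoma 1 read 83.58 and 82.64%.

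HoxB position 96182075, 132.1 kb into the window on the side of Hoxb1, varied the other way. Its level was 18.1, 28.0 and 30.8% in control and 13.05, 45.7 and 35.7% in Tet1 null adenomas. It reached 42.4, 15.6 and 73.1% in Tdg heterozygous and 49.5 and 17.6% in double heterozygous adenomas, on 619 reads or more. Tdg heterozygous adenoma 3 was the highest here, and it was also the highest (18.7%) at the neighbouring position 96181726, where the other 10 adenomas lay between 1.54 and 4.73%. HoxC position 102846467 was at 8.20, 17.2 and 36.95% in control, so that the highest of all 11 values was in a control adenoma, and the other 8 lay between 6.40 and 19.85%. HoxD position 74565069 was at 14.7, 17.1 and 11.7% in control and 37.7, 14.9 and 20.4% in Tet1 null adenomas. It was at 26.3, 16.5 and 34.4% in Tdg heterozygous adenomas, and the groups overlapped for Tet1 null (edgeR adjusted p = 0.761).

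One Hox site was methylated throughout. HoxB position 96158615, with no other CCCGGG site within 500 bp, was at 92.3, 90.6 and 93.6% in control and at 88.5 to 100% in the other 8 adenomas, on 28 to 89 reads. Both double heterozygous values, 96.1 and 100%, lay above the control values, and the site passed in no comparison (edgeR adjusted p = 0.828 for Tet1 null and 0.904 for double heterozygous against control).

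Among the 5 wide-ranging sites and the mean of 4779 sites of 20 to 80% outside the clusters, 15 relations over the 11 adenomas were computed. The sites were picked after their ranges were seen. The HoxA neighbours varied together (Pearson r = 0.930, permutation p = 0.00021, adjusted 0.00315; Spearman rho = 0.909, permutation p = 0.00038, adjusted 0.0057). Without the 2 adenomas farthest from the median, r was 0.866. Depths at these 2 sites were close in each adenoma, from 33 and 37 reads in Tet1 null adenoma 3 to 192 and 218 in adenoma 1. The 2 sites are therefore not taken as independent measurements, and their relations to other sites are not separate results.

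HoxA position 52115047 and HoxB position 96182075 varied in opposite directions by Pearson's r (-0.827, permutation p = 0.00123, adjusted 0.00615). By Spearman's rho the relation did not pass after adjustment (-0.755, permutation p = 0.00997, adjusted 0.0748). Pearson's r was -0.772 without the 2 farthest adenomas and -0.943 on deviations from the genotype means. Since 3 adenomas lay below 40% at the HoxA site and 8 above 54%, the relation was also taken in the 8 alone, where r was -0.573 (permutation p = 0.134) and rho -0.429 (permutation p = 0.296). The 8 were taken by their HoxA level, which narrows its range, so this value does not show whether the relation holds among them. The 3 below 40% were Tet1 null adenoma 2, Tdg heterozygous adenoma 3 and double heterozygous adenoma 1. The other HoxA site, position 52114462, did not pass against the same HoxB site after adjustment. There r was -0.69 (permutation p = 0.0172, adjusted 0.0515) and rho -0.582 (permutation p = 0.0658, adjusted 0.165).

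The HoxA sites were also set against methylation elsewhere, to which their relation was inverse by Pearson's r and did not pass by Spearman's rho after adjustment. The mean over the 4779 partly methylated sites outside the clusters was 52.7 to 54.5% in control and 54.2, 65.2 and 60.5% in Tet1 null adenomas. It was 55.8, 55.8 and 58.4% in Tdg heterozygous and 62.7 and 56.5% in double heterozygous adenomas. The relation to it was r = -0.873 at HoxA position 52114462 (permutation p = 0.00071, adjusted 0.00532; rho = -0.691, permutation p = 0.0226, adjusted 0.101). At HoxA position 52115047 it was r = -0.821 (permutation p = 0.00374, adjusted 0.014; rho = -0.655, permutation p = 0.0337, adjusted 0.101). In the 8 adenomas with high HoxA levels, r at HoxA position 52115047 was -0.472 (permutation p = 0.239) and rho -0.167 (permutation p = 0.704), with the same narrowed range. Without the 2 farthest adenomas r was -0.756 and -0.785 at the HoxA sites, in the order above. For the HoxB site r was 0.563 (permutation p = 0.0707, adjusted 0.177), and for the HoxC and HoxD sites it was 0.0606 and -0.0996 (permutation p = 0.86 and 0.783, adjusted 0.921 and 0.903). The share of adenoma cells in each sample was not measured, and its part in these relations was not tested. Adenomas with low HoxA levels included females and males.

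**Figure D4:**
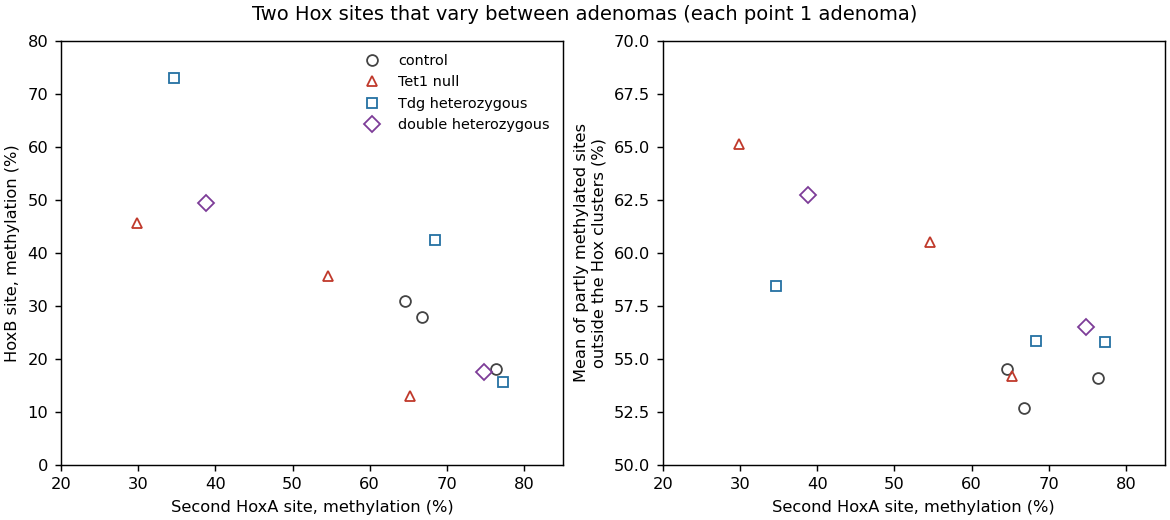
Each point is 1 of 11 adenomas, plotted by its methylation level (%) at HoxA position 52115047 against its level at HoxB position 96182075 (left) and against the mean level of 4779 partly methylated sites outside the clusters (right), with symbols by genotype. Adenomas with low HoxA levels, between 29.9 and 38.75%, have HoxB levels of 45.7 to 73.1%.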

How the data were processed

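Per the labels' protocols, standards of known methylation were added to adenoma DNA before digestion with SmaI and then XmaI. Reads were processed with Trim Galore and Bowtie2 on mm9, per the submitters' processing notes, which state no versions. A rat build in the protocol text was disregarded because the file headers name mm9. For each CCCGGG site the authors deposited read counts of either state. They also deposited percent methylation, raw and after a correction for enzyme efficiency from the standards (the adjusted level). Levels in the text are adjusted unless called raw.

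Members and lists were chosen with earlier results of these data known. Autosomal sites with 20 reads or more in 11 adenomas were kept (24503), and 21016 with at least 1 read of each state went into the test of edgeR 4.0.16 (R 4.3.3). The quasi-likelihood fit over the 11 adenomas had a depth term for each adenoma, a genotype effect on the methylated reads, the same library size for both states and no dispersion trend (common dispersion 0.112). It estimated 1 spread for all sites, so limma 3.58.1 on log2 ratios of counts (2 reads added), with a spread per site, is given beside calls. Depth coefficients per adenoma take the place of library scaling. All p-values are two-sided. Those of edgeR and limma were adjusted by Benjamini-Hochberg across the tested sites, and those of the 15 relations across the relations. The chi-square p-values and the permutation p-values in 8 adenomas were not adjusted. The edgeR and limma tests were both tried on simulated counts. Sites were named by size of difference among called sites, or, where none passed, as the 3 smallest p in each direction, with the 3 highest control means and 3 widest ranges per cluster. Relations over adenomas used 100000 permutations. Alternatives were depth minimums of 50 and 100, all 12 adenomas, at least 10 reads of each state, limma on logits bounded at 0.5 and 99.5%, replicate block, sex, compared genotypes alone and leaving out each adenoma. Figures used matplotlib 3.10.9.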

Additional observations from a re-analysis of the deposited data

Results flagged for a closer look

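HoxC position 102796453 was marked because genotypes differed in their change from the shared control: the change in Tet1 null adenomas exceeded that in Tdg heterozygous adenomas when the contrast between them was tested directly (edgeR adjusted p = 0.00593), with all 3 Tet1 null adenomas above all 3 Tdg heterozygous ones. The unused double heterozygous adenoma 3 had at least 20 reads at 64 Hox sites. None of these had a lower 95% bound in that adenoma above the upper bounds of all 3 controls, and the remaining Hox sites were not checked. This adenoma read 2.56% at HoxC position 102796453 (2 of 85 reads). Groups of 3 adenomas were too small for a check of single values far from the rest.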

How the results depend on the processing

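The HoxC call in Tet1 null against control was kept in every fit that left out 1 adenoma (1 site in each), but not at a depth minimum of 100 or with limma on logits (0 sites each). Against Tdg heterozygous adenomas it was likewise 0 under these settings, and 0 to 2 sites without 1 adenoma; the second site was HoxD 74521190. For Tdg heterozygous against control the count was 0 to 1 without 1 adenoma. The other 3 comparisons gave 0 Hox sites under every alternative.

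The HoxA average for Tet1 null minus control, -1.62 points, became 0.244 at 100 reads, 0.251 with summed reads and 0.386 without sites of range 20 points or more (added after seeing the data). That for HoxC, 0.846 points, became -1.34 at 100 reads, which drops the called site, and -0.646 with summed reads. It became 1.91 without the wide site, where control averages were 1.17 to 1.47% and Tet1 null averages 2.67 to 4.05%, and 0.0633 to 1.79 without 1 adenoma. The 8 HoxC sites left without the wide site include the called site, which was 12.5 points higher in Tet1 null adenomas. No average was taken without both sites, so the 1.91 points do not describe the other HoxC sites. The HoxD average for Tet1 null minus control, 0.933 points, became 0.508 without the wide site, and for Tdg heterozygous, 1.17 points, 0.689. Without 1 adenoma the double heterozygous differences ranged from -2.74 to 0.168 points in HoxA and -0.375 to 1.56 in HoxB, where the lone adenoma left is assumed to vary like the other groups. In limma on logits 2 sites near 0 had no direction.

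With the replicate block the Hox counts were the same, 1, 0, 0, 1, 0 and 0 in the order of the comparisons. Over all sites, calls in Tet1 null against control fell from 283 to 202. The correlation of deviations between same-numbered adenomas of different genotypes was -0.269 to 0.228, and over 0.1 in 4 of 15 pairs. Of 11 adenomas, 6 correlated best with their own number, so pairing by number was not excluded. Deviations of the double heterozygous adenomas used mirror each other, and the lowest value came from a pair with one of them. Over all sites the count for Tet1 null against control was 265 at 100 reads, 150 with 10 reads of each state, 195 with sex, 395 with the compared genotypes alone, 196 and 66 with limma on ratios and logits, and 120 to 378 without 1 adenoma. For Tet1 null against Tdg heterozygous (312) it was 196 with 10 reads of each state, 62 with limma on logits and 180 to 376 without 1 adenoma. For Tet1 null against double heterozygous (99) it was 18 with 10 reads of each state, 59 with the block, 47 with the compared genotypes alone, 36 and 21 with limma on ratios and logits, and 24 to 95 without 1 adenoma. The 3 comparisons with 0 had up to 12. Of the 73 sites, 9 had under 20 reads in double heterozygous adenoma 3.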
